A study of Mus musculus with 4 samples.

Results

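The 9 genes described here, Cd40, Cd80, Cd86, Cd83, Cd69, Cd274, Pdcd1lg2, Icosl and Havcr2, encode surface molecules through which a macrophage stimulates or restrains T cells, or that mark its activation. They were taken by symbol from 24235 genes, after the deposited values of all transcripts of a gene had been summed. All 9 were found, and 8 of the 9 reached 1 FPKM in at least 1 library. The choice of the genes used no measured value of them, but it was made with earlier results of these data known. FPKM is fragments scaled by transcript length and by the size of the library, so levels can be compared between genes.

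Macrophages were grown with M-CSF, a macrophage growth factor, from marrow of C57BL/6 mice, 7 weeks of age. There were 4 mRNA libraries, 1 per group: wild type (WT) and Sema6D-/-, each either left without LPS or given it. LPS, a bacterial cell wall component sensed by the receptor TLR4, was given at 100 ng/ml over 4 h. LPS stands in the treatment label of all 4 samples, so groups were taken from the titles, where "non" was taken to mean no LPS. What is deleted in Sema6d is not given in the labels, nor whether cells of several mice were pooled. With 1 library per group there is no replicate check, no test across libraries was possible, and every value below describes these libraries.

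An antigen-presenting cell shows a T cell its antigen together with co-stimulatory or inhibitory signals. The B7 proteins CD80 and CD86 bind CD28, which activates, and CTLA-4, which restrains. ICOS ligand, encoded by Icosl, binds ICOS, and CD40 is the receptor through which T cells bearing CD40 ligand license the presenting cell. PD-L1 (Cd274) and PD-L2 (Pdcd1lg2) engage the inhibitory receptor PD-1. TIM-3 (Havcr2) is an inhibitory receptor found on T cells and on myeloid cells. CD83 protects CD86 and MHC class II from the ubiquitin ligase MARCH1, and CD69 is a lectin-like antigen that appears early on activated leukocytes.

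Several facts of the libraries touch every genotype comparison. Sema6d itself measured 0.304 FPKM in WT without LPS and 0.219 with LPS. It measured 0.563 and 0.592 FPKM in the libraries labelled Sema6D-/-, so it was not lower there, and the word "labelled" is kept below. Xist, made only in female cells, measured 22.3 and 21.4 FPKM in WT against 0.0333 and 0.0306 in the others. The Y-linked Eif2s3y measured 0.0207 FPKM or less in WT and 33.5 and 50.4 in the others. The genotypes therefore differ in sex-linked genes as well as in the label. All 9 macrophage markers examined, among them Adgre1, Csf1r and Cd68, reached 1 FPKM, and their summed level was 17482 to 24766 FPKM. Most of that sum was Lyz2, at 14435 to 19821 FPKM, while Mertk measured 11.7 to 61.3 FPKM. Of the 9 dendritic cell markers 4 reached 1 FPKM (summed 7.71, 8.22, 11.9 and 25.9 FPKM in the order WT without and with LPS, labelled Sema6D-/- without and with LPS), and the defining genes Flt3, Zbtb46 and Clec9a stayed below 1 FPKM throughout. Itgax, which encodes CD11c, measured 0.178 and 0.349 FPKM in WT against 6.86 and 16.3 in the others. Of the other markers at 1 FPKM or more, Batf3 went the other way, at 5.98 and 3.31 FPKM in WT against 2.37 and 1.18. Xcr1 measured 0.266 and 2.52 FPKM in WT against 1.05 and 2.50, and Ccr7 0.714 and 1.06 FPKM against 0.705 and 4.19. Of the 8 neutrophil markers 7 reached 1 FPKM, with sums of 828 and 1272 FPKM in WT against 234 and 360 FPKM in the others. Ly6g was the one that stayed below 1 FPKM throughout. S100a8 held 409 and 627 FPKM of the WT sums and 103 and 166 FPKM of the others. S100a9 held 269 and 417 FPKM against 79.3 and 113 FPKM. Camp was close with LPS, at 23.0 FPKM in WT against 21.1. Of the 5 B cell markers 1 reached 1 FPKM (Cd79b; sums 12.5, 7.21, 3.15 and 0.707 FPKM), and of the 8 T and NK cell markers 2 did (Cd4 and Lck; sums 2.13 to 4.84 FPKM), while Cd3e stayed below 1 FPKM. Mast cell (0 of 4), erythroid (0 of 6) and stromal (1 of 4) markers were scarcely present. In bulk RNA, fewer cells of a kind and less RNA per cell cannot be told apart.

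RefSeq promoter sequence, 250 bases before to 50 bases after the start on build GRCm38.p6, was on hand for 5 of the 9 genes. Those of 3 are printed because their genes show the 3 kinds of behaviour found below. They are Cd274, among the most LPS-induced genes (chr19:29367188-29367487, plus strand), its neighbour Pdcd1lg2, barely detected (chr19:29410669-29410968, plus strand), and Havcr2, lower with LPS (chr11:46454681-46454980, plus strand). Capitals mark matches to the motifs searched.
Cd274: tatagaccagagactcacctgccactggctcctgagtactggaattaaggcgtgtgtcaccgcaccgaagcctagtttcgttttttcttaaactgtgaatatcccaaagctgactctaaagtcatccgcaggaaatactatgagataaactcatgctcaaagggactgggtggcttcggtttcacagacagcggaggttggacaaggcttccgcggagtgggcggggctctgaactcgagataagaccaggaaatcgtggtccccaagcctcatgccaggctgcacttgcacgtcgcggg
Pdcd1lg2: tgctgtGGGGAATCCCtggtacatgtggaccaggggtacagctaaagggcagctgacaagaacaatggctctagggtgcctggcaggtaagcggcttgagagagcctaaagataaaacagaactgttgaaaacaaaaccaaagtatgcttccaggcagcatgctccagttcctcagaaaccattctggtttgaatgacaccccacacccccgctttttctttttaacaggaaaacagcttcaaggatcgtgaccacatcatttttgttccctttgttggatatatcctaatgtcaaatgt
Havcr2: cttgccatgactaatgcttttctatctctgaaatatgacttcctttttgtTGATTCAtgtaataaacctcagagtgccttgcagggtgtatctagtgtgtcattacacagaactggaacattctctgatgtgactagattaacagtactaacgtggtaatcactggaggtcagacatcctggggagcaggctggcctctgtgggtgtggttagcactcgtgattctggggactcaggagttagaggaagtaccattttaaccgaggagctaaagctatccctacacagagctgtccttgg
Both strands were searched for 3 spellings of the NF-kB motif, which can overlap each other, and for the interferon-stimulated response element. The STAT motif GAS (TTCNNNGAA) and a loose spelling of the AP-1 motif (TGANTCA, any middle base) were searched too. The Cd274 window held none of them. That of Pdcd1lg2 held 1 of the NF-kB spellings on the minus strand, 244 bases before the start, which 5.55% of 32851 promoters also hold. Some spelling of the NF-kB motif was in 10.4% of promoters. The loose AP-1 spelling was in 7.81% of promoters, and it lay 200 bases before the start in Havcr2 and 42 bases before the start in Cd80. Both of these matches read TGATTCA. Neither has C or G at the open middle base, and the share of promoters with C or G there was not counted. The Icosl window held no match. The other NF-kB spellings (in 1.63% and 5.56% of promoters), the interferon-stimulated response element (3.44%) and TTCNNNGAA (8.30%) were in none of the 5 windows. A match is a string of letters and not a shown binding site.

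With LPS, 6 of the 8 measured genes were at least 2-fold higher in WT (Cd40, Cd86, Cd83, Cd69, Cd274 and Icosl), 1 was at least 2-fold lower (Havcr2) and Cd80 lay between. The same 6 were higher, and Havcr2 again lower, in the libraries labelled Sema6D-/-. The 2-fold rule was applied to log2((FPKM + 1)/(FPKM + 1)) in genes at 1 FPKM or more in a library compared. With LPS in WT 10.7% of all genes passed the rule upwards and 4.85% downwards (10.4% and 4.42% of protein-coding genes). In the libraries labelled Sema6D-/- these shares were 14.0% and 8.81% (13.8% and 8.43% of protein-coding genes). The median log2 ratio of the 8 genes was 1.77 in WT and 2.74 in the others, against -0.00 and 0.01 over all genes measured. These shares depend on scaling, because the LPS libraries sum to more FPKM. With all libraries rescaled to one summed FPKM (a common total), 713 genes in WT were 2-fold higher and 1502 were lower (1114 and 503 as deposited), and 745 higher and 3008 lower in the others (1453 and 916 as deposited). Centring on the median or on the trimmed mean gave 1245 and 1233, or 1229 and 1272, in the libraries labelled Sema6D-/-. Of the 8 genes, 4 in WT (without Cd86 and Icosl) and 5 in the others (without Icosl) were still 2-fold higher under the common total. Either centring left all 6 at least 2-fold higher in both genotypes. Below, a fold is the ratio of the FPKM values without the added 1, and square brackets hold its 95% counting interval from estimated fragments, which leaves out variation between cultures.

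**Figure D1:**
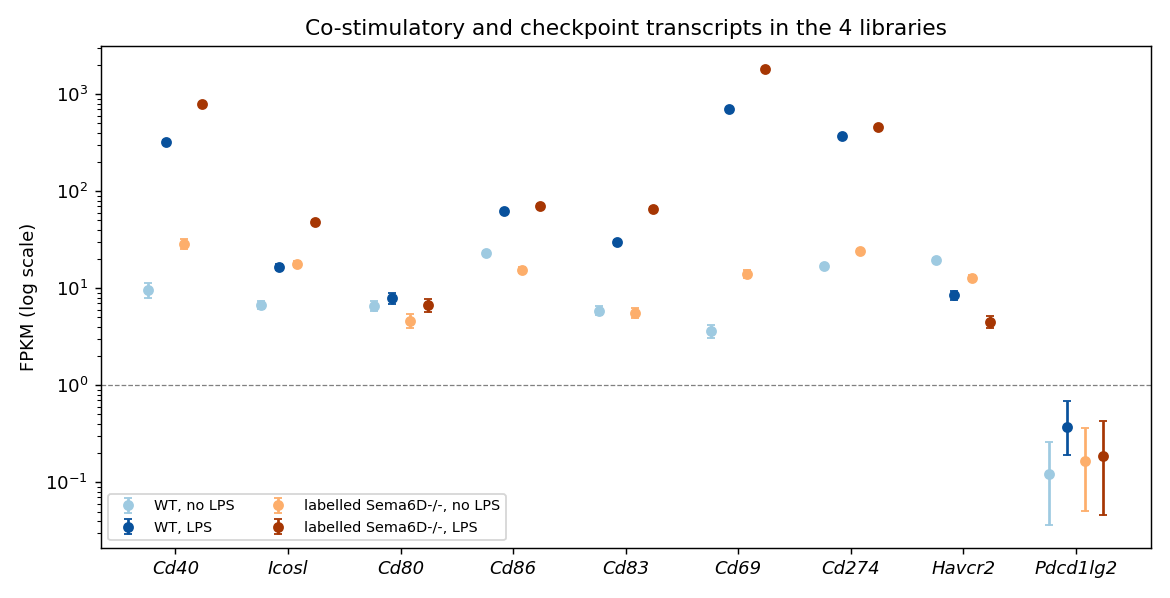
FPKM on a log axis of each gene in the 4 libraries, 1 point per library, with 95% Poisson counting intervals as bars and a dashed line at 1 FPKM. Cd69, Cd274 and Cd40 stand at 323 FPKM or more in both LPS libraries. Cd80 lies at 4.65 to 7.93 FPKM, Havcr2 is lower with LPS, and Pdcd1lg2 is below 1 FPKM in all 4 libraries.

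Cd40, which receives the T cell's CD40 ligand, measured 9.52 FPKM in WT without LPS, 323 in WT with LPS, 28.7 in the library labelled Sema6D-/- without LPS and 788 in that with LPS. Both LPS libraries stood far above both others, and each library labelled Sema6D-/- stood above its WT counterpart. The LPS ratio was 33.9-fold [28.6, 40.6] in WT and 27.4-fold [24.4, 30.9] in the others. By log2 ratio Cd40 ranked 29 of 10035 protein-coding genes from the highest in WT and 37 of 10084 in the others.

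The B7 genes did not move together. Cd86 measured 23.3 and 62.4 FPKM in WT without and with LPS, and 15.4 and 70.6 FPKM in the libraries labelled Sema6D-/-. Its LPS ratio was 2.68-fold [2.52, 2.85] in WT and 4.58-fold [4.23, 4.96] in the others, from a lower starting level there. Cd80 measured 6.59 and 7.93 FPKM in WT and 4.65 and 6.71 FPKM in the others, ratios of 1.20-fold [1.01, 1.43] and 1.44-fold [1.16, 1.82]. Its log2 ratios of 0.23 and 0.45 turned to -0.23 and -0.19 under the common total, so no direction is given for it. Cd86 thus stood 3.53 times above Cd80 in WT without LPS and 7.87 times above it with LPS, and 3.32 and 10.5 times above it in the others.

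Icosl measured 6.72 and 16.6 FPKM in WT and 17.7 and 48.0 FPKM in the libraries labelled Sema6D-/-. The LPS ratios, 2.48-fold [2.22, 2.76] and 2.71-fold [2.51, 2.92], were close. The unstimulated library labelled Sema6D-/- and WT with LPS had overlapping intervals as deposited (16.7 to 18.9 and 15.6 to 17.8 FPKM), but levels of 22.7 and 14.8 under the common total, a comparison added after the data were seen. Under that total its log2 LPS ratios were below the 2-fold rule, at 0.71 and 0.66.

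Of the activation markers, Cd69 had the largest LPS ratio among the 9 genes. It measured 3.61 and 703 FPKM in WT and 14.0 and 1809 FPKM in the libraries labelled Sema6D-/-, or 195-fold [167, 228] and 129-fold [118, 141]. It ranked 3 of 10035 and 5 of 10084 protein-coding genes from the highest. Cd83 measured 5.89 and 29.8 FPKM in WT and 5.53 and 65.8 FPKM in the others. The unstimulated libraries had close values, with intervals that overlap (5.33 to 6.49 and 4.91 to 6.23 FPKM), and the LPS libraries stood apart. Its LPS ratio was 5.05-fold [4.52, 5.66] in WT and 11.9-fold [10.5, 13.5] in the others.

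The PD-1 ligands lay at opposite ends. Cd274 measured 16.9 and 372 FPKM in WT and 24.0 and 461 FPKM in the libraries labelled Sema6D-/-, or 22.0-fold [20.9, 23.1] and 19.2-fold [18.3, 20.2] with LPS. It ranked 49 of 10035 and 59 of 10084 from the highest. Pdcd1lg2, the next gene on chromosome 19 in the RefSeq order, measured 0.121, 0.369, 0.167 and 0.187 FPKM, an estimated 5, 11, 5 and 4 fragments. Its LPS ratios of 3.06-fold [1.09, 12.5] and 1.12-fold [0.216, 5.06] rest on those few fragments. The other neighbours, Plgrkt (log2 LPS ratios 0.44 and 0.35) and Ric1 (0.53 and 0.83), were below the 2-fold rule. These neighbours were looked at after the values of Cd274 had been seen.

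Havcr2 was the only one of the 8 measured genes with a negative LPS ratio on the deposited scale. It measured 19.5 and 8.43 FPKM in WT and 12.7 and 4.53 FPKM in the libraries labelled Sema6D-/-. The level with LPS was 0.432 [0.386, 0.481] of that without in WT and 0.357 [0.303, 0.420] in the others. By log2 ratio it ranked 320 of 10035 protein-coding genes from the lowest in WT and 439 of 10084 in the others. Rescaling to a common total made both ratios more negative, at -1.62 and -1.96 against -1.12 and -1.31.

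**Figure D2:**
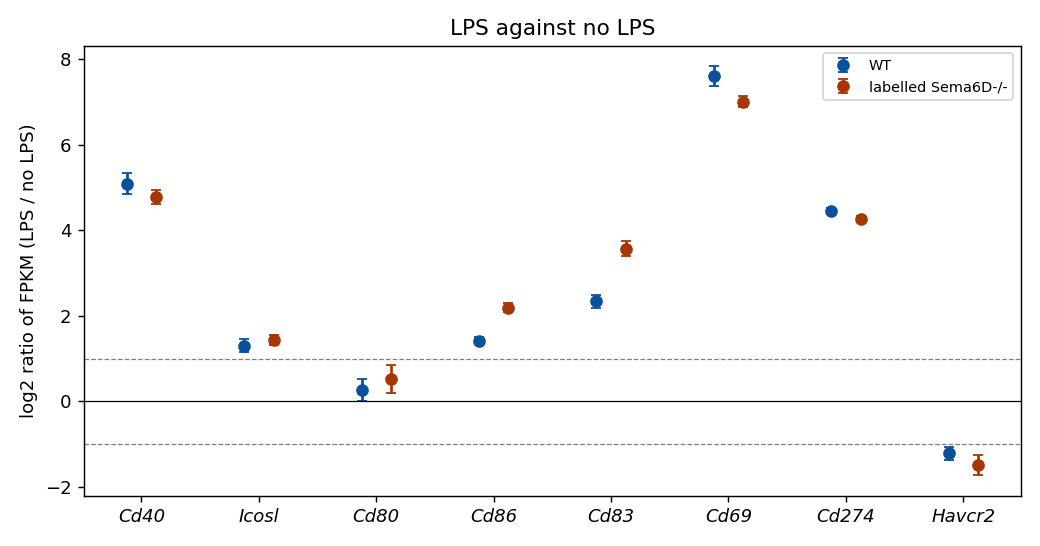
The log2 ratio of FPKM, LPS over no LPS and without an added 1, is plotted for the 8 measured genes in WT (blue) and in the libraries labelled Sema6D-/- (brown), with 95% counting intervals as bars and dashed lines at 2-fold. Cd69, Cd40 and Cd274 are highest, Cd80 lies near 0, Havcr2 lies below -1, and the genotypes are furthest apart for Cd83 and Cd86.

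The order of levels changed with LPS. In WT without LPS it ran from Cd86 through Havcr2, Cd274, Cd40, Icosl, Cd80 and Cd83 to Cd69, with Pdcd1lg2 last. Icosl (6.16 to 7.31 FPKM), Cd80 (5.87 to 7.38) and Cd83 (5.33 to 6.49) had overlapping counting intervals. In WT with LPS it ran from Cd69 through Cd274, Cd40, Cd86, Cd83 and Icosl to Havcr2 and Cd80, whose intervals overlapped (7.64 to 9.26 and 6.96 to 9.02 FPKM). Without LPS, the library labelled Sema6D-/- had Cd40 and Cd274 first, then Icosl, Cd86, Cd69, Havcr2, Cd83 and Cd80. There the intervals of Cd86 (14.4 to 16.5 FPKM) and Cd69 (12.8 to 15.4) overlapped, as did those of Cd69 and Havcr2 (11.8 to 13.7) and of Cd83 and Cd80. With LPS it had Cd69, Cd40 and Cd274 first, with Cd86 (68.0 to 73.3 FPKM) and Cd83 (63.3 to 68.5) next and overlapping, then Icosl, Cd80 and Havcr2. Among genes at 1 FPKM or more, Cd69 went from percentile 20.8 to 99.1 in WT and from 58.6 to 99.7 in the others, while Havcr2 went from 69.2 to 42.3 and from 55.2 to 26.6.

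Between genotypes fewer of these genes passed the 2-fold rule. Without LPS, Cd40, Cd69 and Icosl were at least 2-fold higher in the library labelled Sema6D-/- and 0 of the 8 were lower, where 2.51% of all genes were higher and 2.19% lower (for protein-coding genes alone 2.21% and 1.71%). With LPS, Cd83 joined these and 0 were lower, where 3.09% of all genes were higher and 3.18% lower (for protein-coding genes alone 2.82% and 2.76%). Under the common total 188 genes stood higher with LPS and 410 lower (311 and 320 as deposited), and Cd83 then missed the rule at a log2 ratio of 0.89. The median log2 ratio of the 8 genes was 0.20 without and 0.71 with LPS, against 0.04 and 0.04 over all genes measured. The genotype comparisons with and without LPS share no library. Each, however, carries the sex-linked split, the lower neutrophil marker sums, the higher Itgax and the lower Batf3 of the libraries labelled Sema6D-/-. Each also carries a lower Cd79b and the macrophage marker differences, with Csf1r, Cd14 and Mertk among the higher and Itgam among the lower. The part of these in the results was not tested.

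Icosl was 2.64-fold [2.38, 2.94] higher in the library labelled Sema6D-/- without LPS and 2.88-fold [2.66, 3.12] with LPS, ranking 113 of 9990 and 97 of 9789 protein-coding genes from the highest. Cd40 was 3.02-fold [2.46, 3.72] and 2.44-fold [2.33, 2.55] higher. Cd69 was 3.89-fold [3.25, 4.67] and 2.57-fold [2.53, 2.62] higher. As deposited, the interval lay above 2-fold in both states for all 3. Under the common total the log2 ratios with LPS shrank to 1.053 for Cd40, 1.133 for Cd69 and 1.242 for Icosl. With only its transcript of highest mean, Cd40 had a log2 ratio of 1.016 with LPS. These values still passed the 2-fold rule, but whether their intervals lay above 2-fold was not tested. Cd274 was 1.42-fold [1.33, 1.52] and 1.24-fold [1.22, 1.26] higher, below the 2-fold rule, and its log2 ratio with LPS shrank from 0.31 to 0.08 after rescaling to a common total.

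Havcr2 and Cd80 had lower values in the libraries labelled Sema6D-/- in both states, under the 2-fold rule. Havcr2 stood at 0.650 [0.593, 0.711] of the WT level without LPS and at 0.537 [0.451, 0.640] with LPS. Cd80 stood at 0.705 [0.576, 0.857] and 0.846 [0.689, 1.04], so with LPS the difference was not detectable at this depth. Cd86 stood at 0.663 [0.609, 0.722] of WT without LPS and at 1.13 [1.07, 1.19] times WT with LPS. The second of these turned to a log2 ratio of -0.05 after rescaling to a common total. Cd83 stood at 0.939 [0.805, 1.10] of WT without LPS, which was not detectable as a difference, and was 2.21-fold [2.07, 2.36] higher with LPS. Pdcd1lg2 stood at 1.38 [0.318, 6.00] and 0.507 [0.102, 1.49] times WT, too few fragments to place.

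**Figure D3:**
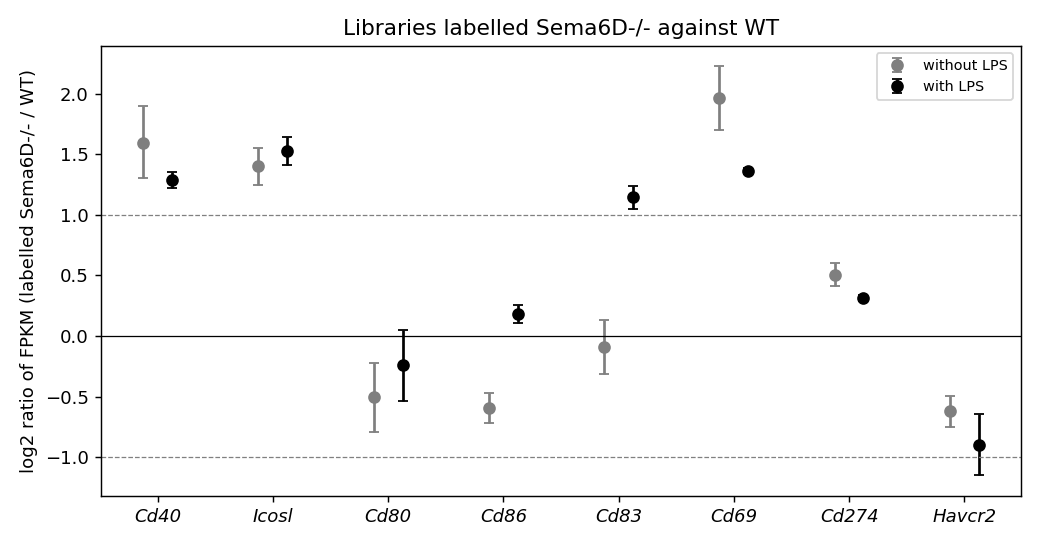
The log2 ratio of FPKM, libraries labelled Sema6D-/- over WT and without an added 1, is plotted for the 8 measured genes without LPS (grey) and with LPS (black), with 95% counting intervals and dashed lines at 2-fold. Cd40, Icosl and Cd69 lie above 1 in both states, Cd83 only with LPS, and Havcr2 and Cd80 lie below 0 in both.

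The LPS responses of the genotypes were compared as the response in the libraries labelled Sema6D-/- divided by that in WT. Of the 8 genes 1 (Cd83) was at least 2-fold more induced there and 0 were less, where 1.83% of 10680 genes were more and 1.25% less (1.36% and 0.768% of protein-coding genes). The quotient was 2.35 [2.0, 2.78] for Cd83 and 1.71 [1.55, 1.89] for Cd86. On the log2 scale with the added 1, Cd83 had 1.20, ranking 69 of 10290 protein-coding genes from the highest, and Cd86 had 0.74, ranking 318. Both were smaller under the common total, at 0.97 and 0.52, and Cd83 then missed the 2-fold rule. Over all genes that rescaling left 123 more and 222 less induced, against 195 and 134 as deposited. Cd69 had a quotient of 0.661 [0.553, 0.791] and Cd274 of 0.875 [0.818, 0.936], each from a higher unstimulated level in the library labelled Sema6D-/-. On the log2 scale with the added 1 these were -0.34 and -0.17, and they moved to -0.62 and -0.40 under the common total. The quotient of Cd40, also from a higher unstimulated level there, was 0.808 [0.658, 0.993]. Those of Havcr2 (0.827 [0.682, 1.00]), Icosl (1.09 [0.959, 1.25]), Cd80 (1.20 [0.909, 1.58]) and Pdcd1lg2 (0.367 [0.0680, 1.99]) included 1. These counting intervals use a normal approximation.

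Of the 9 genes 7 had 1 RefSeq transcript, Cd83 had 2 and Cd40 had 5. Among these, NM_011611 and NM_170704 exchanged places between the LPS libraries of the genotypes. Without LPS they were close in WT, and NM_011611 was the higher in the library labelled Sema6D-/-. NM_011611 measured 1.07 and 0.0300 FPKM in WT without and with LPS, and 9.95 and 345 FPKM in the libraries labelled Sema6D-/-. NM_170704 measured 1.30 and 124 FPKM in WT and 0.104 and 0.0149 FPKM in the others. Both match the same GENCODE transcript of 9 exons and 867 coding bases, and their sum was 24.9% and 38.5% of Cd40 in WT and 35.0% and 43.8% in the others. The exchange is thus one between RefSeq models that share a GENCODE match. The sequences of these models were not compared, and how far read assignment sets the exchange was not tested. NM_170702 (780 coding bases) held 34.9 to 49.6% of Cd40 and NM_170703 (609 coding bases) held 15.5 to 18.6%. The non-coding NR_027852 held 1.46 to 10.05% and matches the same GENCODE transcript as NM_170702. The sum of NM_170702 and NR_027852 was 59.6% and 44.9% of Cd40 in WT without and with LPS. In the others it was 47.7% and 37.5%, so it was lower with LPS in both genotypes. The coding lengths are those of the matching GENCODE transcripts.

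**Figure D4:**
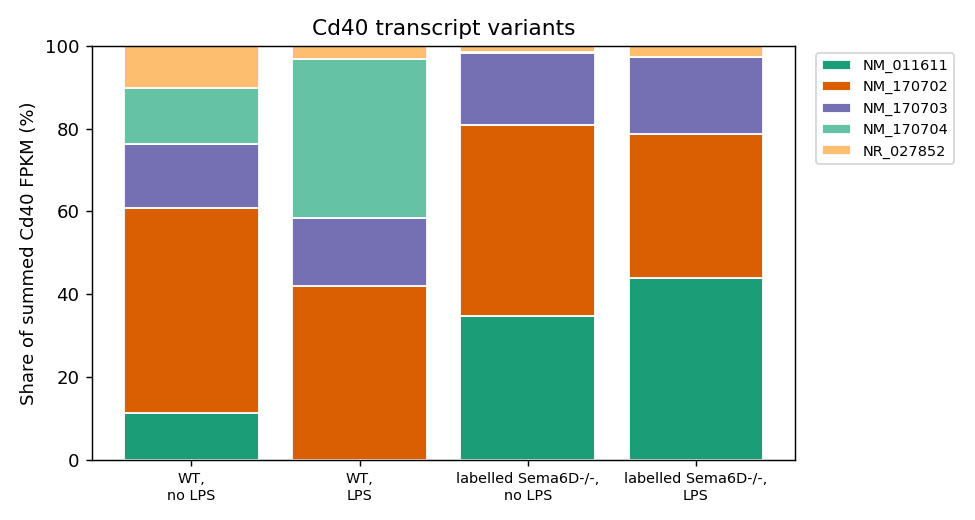
Stacked bars give the share of summed Cd40 FPKM held by each of the 5 RefSeq transcripts in the 4 libraries. NM_170704 holds 38.5% in WT with LPS and NM_011611 holds 43.8% in the library labelled Sema6D-/- with LPS, while NM_170702 and NM_170703 are present throughout.

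Cd83 had 2 transcripts that match 1 GENCODE transcript. NM_009856 held nearly all of the value in WT without LPS and in the library labelled Sema6D-/- with LPS, 78.4% in WT with LPS and 58.9% in the remaining library. With that transcript alone, the log2 LPS ratios were 1.82 in WT and 3.97 in the others, against 2.16 and 3.35 from the sum.

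The binding partners and relatives of these molecules were followed in lists that, like the 9 genes, were drawn up with earlier results known. Of the 5 binding partners Cd28, Ctla4, Pdcd1, Icos and Cd40lg, which T cells carry, Cd28 and Pdcd1 reached 1 FPKM. Cd28, the receptor of CD80 and CD86, measured 10.5 and 5.0 FPKM in WT and 4.19 and 2.0 FPKM in the libraries labelled Sema6D-/-. Pdcd1, which encodes PD-1, measured 0.0187 and 0.372 FPKM in WT, was listed at 0 in the library labelled Sema6D-/- without LPS and measured 1.22 FPKM in that with LPS. Of 7 other B7 family and butyrophilin genes 2 were measured, Vsir and Cd276, and both had negative LPS ratios. Vsir, which encodes the inhibitory ligand VISTA, measured 80.8 and 53.2 FPKM in WT and 69.6 and 21.8 FPKM in the others (log2 ratios -0.59 and -1.63). Cd276, which encodes B7-H3, had log2 ratios of -0.96 and -1.07.

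In WT, LPS was accompanied by values at least 2-fold higher in 4 of 6 measured TNF superfamily co-stimulators and lower in 1. There were 4 of 5 higher and 0 lower in the others. Tnfsf15, which encodes TL1A, was highest in both, at 0.264 and 34.2 FPKM in WT and 0.832 and 97.0 FPKM in the others. Tnfsf14, the ligand LIGHT, was lowest in WT (log2 ratio -1.04), and Tnfrsf14, its receptor, was lowest of those measured in the others (0.85). There Tnfsf14 was below the filter of 1 FPKM, at 0.776 and 0.253 FPKM (log2 ratio -0.50), and was not counted. Tnfsf9, the 4-1BB ligand, had the largest difference of responses in the list (1.70), from 7.41 and 28.3 FPKM in WT and 7.26 and 92.5 FPKM in the others. Like Cd83 it started level and ended higher in the library labelled Sema6D-/-. Tnfsf4, the OX40 ligand, was lower there with LPS, at 3.59 against 11.9 FPKM, and Tnfsf8, the CD30 ligand, was higher, at 8.46 against 1.27 FPKM.

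CD40 acts through TRAF adaptors and NF-kB. In WT 11 of 15 genes of this list were at least 2-fold higher with LPS and 1 was lower, and the counts were the same in the others, with medians of 2.17 and 1.92 (10 and 9 higher, 1 and 2 lower, under the common total). Traf1, an adaptor bound by activated CD40, was highest in WT (4.31 to 88.6 FPKM), and the NF-kB inhibitor Tnfaip3 was highest in the others (15.3 to 433 FPKM). Map3k14, the kinase NIK of the non-canonical pathway, was lowest in both, with log2 ratios of -1.65 and -2.09. Without LPS, 4 of the 15 were at least 2-fold higher in the library labelled Sema6D-/- and 0 lower, led by Traf1 (20.5 against 4.31 FPKM). With LPS, 4 were higher and 0 lower, led by Tnfaip3 (433 against 162 FPKM), and 2 after rescaling to a common total. Relb was the only one with a difference of responses past 2-fold (-1.11), from 7.33 and 38.9 FPKM in WT and 24.0 and 54.3 FPKM in the others.

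Interferons are known inducers of PD-L1, with IRF1 among the factors they act through. In each genotype LPS left 10 of 16 measured genes of this list at least 2-fold higher and 0 lower, with medians of 1.63 and 1.80 (8 and 9 higher under the common total). Socs1, a feedback inhibitor of JAK kinases, was highest in both (log2 ratios 6.01 and 5.86) and Ifngr1 lowest (-0.26 and -0.20). Irf1 measured 25.2 and 334 FPKM in WT and 55.9 and 470.0 FPKM in the others, so that it was 2-fold higher in the library labelled Sema6D-/- without LPS and below the rule with LPS. Without LPS 3 of 15 were higher and 0 lower there, and with LPS 0 of 16 were higher or lower.

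Among SLAM and adhesion genes 4 of 9 passed the 2-fold rule upwards with LPS in each genotype and 0 downwards (3 and 2 higher under the common total). Icam1, the ligand of LFA-1, was highest, at 40.4 and 355 FPKM in WT and 83.3 and 765 FPKM in the others. Icam2 was lowest in WT (log2 ratio 0.03) and Cd244a in the others (-0.39). Of the other checkpoint genes 4 of 11 were higher in WT and 6 of 14 in the others, with 0 lower in each. Under the common total 0 were higher in both, and 0 and 2 were lower. It also turned the WT median from 0.22 to -0.27. Lgals9, which encodes the TIM-3 ligand galectin-9, was highest in both, at 170.0 and 464 FPKM in WT and 201 and 594.5 FPKM in the others. It was thus higher in the LPS libraries where its receptor gene Havcr2 was lower. Sirpa, the receptor of the signal CD47, was lowest (-0.40 and -0.56). Cd200r1, an inhibitory receptor of myeloid cells, was lowest between genotypes with LPS, at 7.87 against 21.5 FPKM.

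Of 9 genes tied to the surface turnover of these molecules, 2 passed the 2-fold rule upwards with LPS and 1 downwards in each genotype (1 higher in each, 2 and 4 lower, under the common total). Marchf1, which encodes the ligase MARCH1 that removes CD86, measured 10.6 and 45.3 FPKM in WT and 15.1 and 59.7 FPKM in the others. Cmtm6, which protects PD-L1 from degradation, had log2 ratios of 1.12 and 1.52, and missed the rule in both genotypes once libraries had equal totals. S1pr1, the receptor that CD69 pulls from the surface, was lowest, at 18.8 and 2.78 FPKM in WT and 16.5 and 1.47 FPKM in the others. Between genotypes 0 of the 9 were 2-fold apart in either state.

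**Figure D5:**
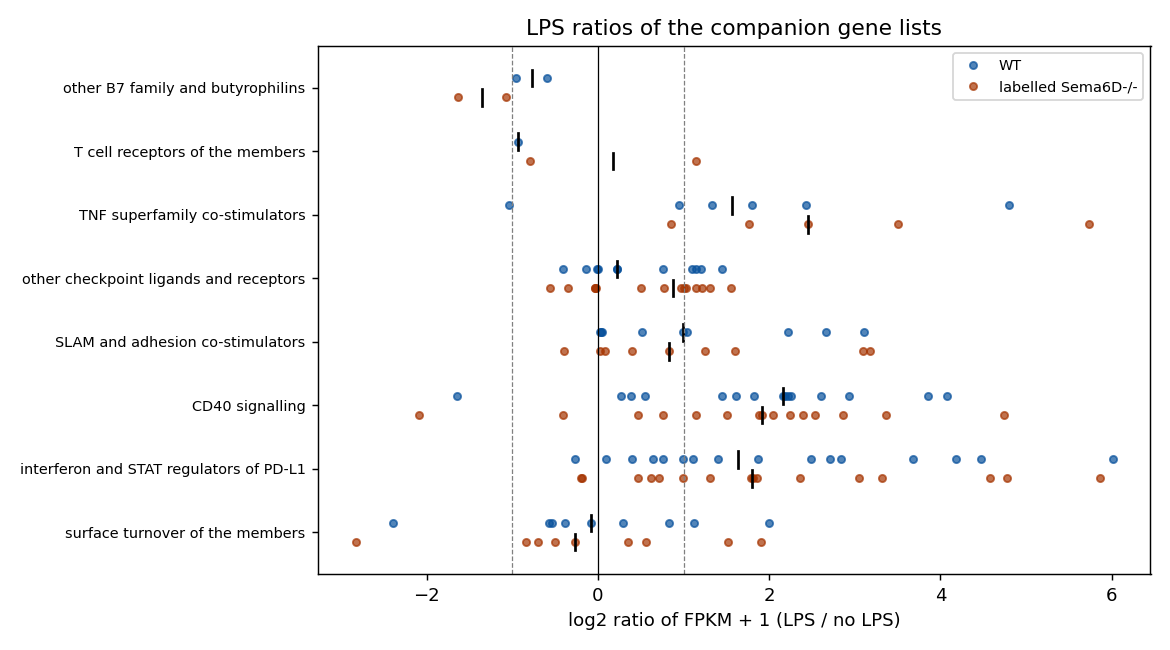
Each point is the log2 ratio of FPKM + 1, LPS over no LPS, of 1 measured gene of a list in WT (blue) or in the libraries labelled Sema6D-/- (brown), with black marks at the list medians and dashed lines at 2-fold. Medians of CD40 signalling are 2.17 and 1.92, those of the interferon and STAT list 1.63 and 1.80, and those of other B7 genes lie below 0.

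The genes closest in pattern were sought among 7132 protein-coding genes with a mean of 5 FPKM or more, by the distance between centred log2(FPKM + 1) profiles over the 4 libraries. For Cd40 they were Tnfsf10, Il12b and Gbp3 (distances 0.385, 0.426 and 0.509). For Cd69 they were Ch25h, Il27 and Nos2 (0.435, 0.666 and 0.715), and for Cd274 Mxd1, Ifih1 and Serpinb2 (0.155, 0.259 and 0.347). Cd83 lay closest to Klf8, Usp12 and Bcl2a1d (0.234, 0.249 and 0.270), and Cd86 to Rbbp8, Psat1 and Met (0.146, 0.164 and 0.170). Icosl lay closest to Saa3, Osbpl3 and Agrn (0.282, 0.295 and 0.308), Havcr2 to Cipc, Gclc and Zbtb1 (0.0850, 0.132 and 0.134), and Cd80 to Rpl6, Arl8a and Ppm1h (0.0654, 0.0676 and 0.0698). Profiles over 4 libraries that differ in genotype label, sex-linked genes and LPS at once are few points, so closeness is a description only.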

How the data were processed

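Messenger RNA of mouse bone marrow macrophages was measured in 4 libraries, 1 per group. Cuffnorm 2.2.1, TopHat2 2.0.13, SAMtools 0.1.19, Bowtie2 2.2.3 and the build mm9 are named by the submitters' processing notes. Their order, options and annotation are not given in the sources used here. The deposited values were FPKM, 1 per RefSeq transcript and library. Of 34487 transcripts 34163 were named from the RefSeq table of GRCm38.p6 and 187 from GENCODE, and 137 unmatched ones were left out. Transcripts were summed per symbol.

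Ratios were log2((FPKM + 1)/(FPKM + 1)), for genes at 1 FPKM or more in a library compared, and were counted at 2-fold. No test was run, as each group was 1 library. Fragment numbers were recovered from low values. Their product with effective length fell within 0.1 of whole multiples of 1 step for 73.5 to 74.5% of low values (20.0% by chance), which gave estimated totals of 17.2 to 23.5 M fragments per library. Lengths came from GENCODE, and for Cd40 the shortest transcript was used, which widens its intervals. Intervals are exact Poisson for levels and exact binomial (Clopper-Pearson) for ratios, and cover counting error only. The depth estimate is approximate. The steps were tested on simulated data. Python 3.11.15, pandas 2.3.3 and SciPy 1.17.1 were used.

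The 9 genes, the lists and the rules were chosen with earlier results of these data known. All 9 genes are named in every comparison. Of each list, genes with the highest and lowest ratios are named, and other genes named were chosen for their known roles or after their values were seen. The alternatives were other added values, filters, scalings, fold rules and the transcript of highest mean.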

Additional observations from a re-analysis of the deposited data

Results flagged for a closer look

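For 3 genes the ratio of the libraries labelled Sema6D-/- to WT had opposite signs without and with LPS, and the difference was not tested. The log2 ratios with the added 1 were -0.56 without and 0.18 with LPS for Cd86, -0.078 and 1.12 for Cd83, and 0.058 and -0.21 for Pdcd1lg2. The positive value of Cd86 turned to -0.05 after rescaling to a common total, the unstimulated value of Cd83 lay within counting error of 0, and Pdcd1lg2 rested on 4 to 11 fragments.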

How the results depend on the processing

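None of the 2-fold differences of the genes changed sign under the alternatives run. With a 4-fold rule 0 genes were apart between genotypes without LPS, 0 with LPS and 0 in the difference of responses, against 3, 4 and 1 at 2-fold, since the rule is stricter. In the difference of responses 0 passed after rescaling to a common total and 2 (Cd83 and Cd86) at 1.5-fold. That rescaling left 4 and 5 of the 6 genes higher with LPS (WT first, libraries labelled Sema6D-/- second), and a 4-fold rule also left 4 and 5. It moved the median log2 LPS ratio of 6110 genes at 5 FPKM or more by -0.51 and -0.72, the genotype ratio by -0.00 (no LPS) and -0.22 (LPS), and the difference of responses by -0.22. It also turned the sign of ratios below the 2-fold rule for Cd80 with LPS (-0.23 and -0.19), Cd86 between genotypes with LPS (-0.05) and Icosl in the difference of responses (-0.06). The LPS ratio of Pdcd1lg2 in the libraries labelled Sema6D-/- (0.03) turned to -0.09, -0.13 and -0.14 under the common total, the median and the trimmed mean. Taking the transcript of highest mean raised the Cd83 difference of responses from 1.20 to 2.15. Over all genes, these counts at least 2-fold higher or lower moved by more than 1.5 times, beside those of the common total given with each comparison. For LPS in WT (1114 higher, 503 lower) there were 892 lower with 0.1 added, 917 lower with nothing added, 1793 and 1441 at 1.5-fold and 420 and 78 at 4-fold. For LPS in the libraries labelled Sema6D-/- (1453 and 916) there were 1443 lower with 0.1 added, 1478 lower with nothing added, 2288 and 2093 at 1.5-fold and 537 and 163 at 4-fold. Between genotypes without LPS (259 and 226) there were 406 and 359 with 0.1 added, 408 higher with nothing added, 718 and 601 at 1.5-fold and 53 and 62 at 4-fold. Between genotypes with LPS (311 and 320) there were 492 lower with 0.1 added, 488 lower with nothing added, 1009 and 797 at 1.5-fold and 58 and 57 at 4-fold. For the difference of responses (195 and 134) there were 294 and 363 with 0.1 added, 211 lower with 0.5 added, 373 lower with nothing added, 346 and 332 with the transcript of highest mean, 595 and 610 at 1.5-fold and 58 and 48 at 4-fold. No paired analysis was possible because each group was 1 library, and no library could be left out for the same reason. Depth limits Pdcd1lg2, at 4 to 11 fragments, where the limit of 3 fragments is 0.0674 to 0.127 FPKM.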

Other observations

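Clec2d, a lectin gene next to Cd69 on chromosome 6 in the RefSeq order, was looked at after its values were seen. It measured 19.3 and 94.0 FPKM in WT without and with LPS and 34.1 and 127 FPKM in the libraries labelled Sema6D-/-. Its log2 LPS ratios were 2.22 and 1.86, the same direction as those of Cd69. Clec12a, further along, had 0.36 and 0.43, and Clec2m was at 0.0327 FPKM or less in all 4 libraries.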
